A study of Danio rerio with 184 samples.

Results

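The cells described here are the lateral line hair cells of zebrafish larvae in which a transcript of atoh1a was counted, set against the cells in which none was. Members were chosen by that count itself. Of the series' 92 wild-type and 92 mutant-labelled cells, 182 had at least 1000 unique molecular identifiers (UMIs, 1 for each captured transcript molecule) outside the spike-in RNAs. Of those 182 cells, 55 held at least 1 UMI of atoh1a (ENSDARG00000055294, listed as ATOH1 in the symbol table) and 127 held none. Since atoh1a chose the members, its own values are given as a description.

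Atoh1 proteins are basic helix-loop-helix transcription factors that start hair cell differentiation. In the lateral line, progenitors and freshly divided hair cells express atoh1a, and the transcript declines as cells mature. Notch signalling between neighbouring cells, through Delta and Jagged ligands and Hes-related repressors, limits which cells keep it. A mature neuromast hair cell is filled with calcium-binding proteins and carries a mechanosensory hair bundle, ribbon synapses and a kinocilium.

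The study sorted single green fluorescent cells from dissociated trunks of larvae at 6 days post fertilization and counted the 3′ ends of their transcripts by mcSCRB-seq, a plate-based single-cell method. All larvae carried the transgene Tg[myo6b:actb1-EGFP], in which regulatory sequence of myo6b, a hair cell myosin gene, drives a green fluorescent actin. One group was otherwise wild type and the other was labelled Emx2-mutant, after the homeobox factor that sets hair bundle orientation; the labels do not describe the allele, and no larva was treated. Well codes begin with 2 or 4, taken here as the plate number, and each plate held 46 cells of either genotype. Wild-type cells sat in columns 7 to 12 and mutant-labelled cells in columns 1 to 6 of both plates, so genotype and side of the plate cannot be told apart. No label ties a cell to an animal, so each side of every comparison is 1 sample and no test was possible. Intervals are at 95%. Those of levels and ratios cover counting error alone, and differences among cells are not in them. Those of shares of cells take each cell as an independent draw. Those of list medians cover the spread over the genes of a list. Differences among animals are in none of them.

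Both sides held the abundant hair cell transcripts. The calcium-binding protein genes pvalb8, s100s and s100t and the calcium pump gene ATP2B1 had a UMI in 55 of 55 cells with atoh1a and in 127 of 127 without it. A UMI of the transcription factor gene gfi1aa was found in 43 of 55 and 95 of 127 cells. Other hair cell markers were sparser: POU4F3 in 17 of 55 and 36 of 127 cells, SLC17A8 in 13 and 44, and CDH23 in 5 and 6. The epidermal marker krt5 had a UMI in 53 of 55 and 126 of 127 cells, so a UMI alone does not set the cell type. EMX2 itself was not lower in the mutant-labelled cells, with 105 UMIs, or 193 CPM (UMIs of the gene per 1000000 UMIs of the cells; 157 to 233), against 45 UMIs, or 83.7 CPM (61.1 to 112), in wild type, so its 3′ tag does not check the genotype label. Depth ran from 712 to 33325 UMIs per cell. Each cell has its own barcode, and no pair of cells had identical counts.

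atoh1a was sparse. Its 96 UMIs in the 182 cells amounted to 88.7 CPM (71.8 to 108), and the share of cells with a UMI was 30.2% (23.6% to 37.5%, exact binomial). Of the 55 cells, 43 held exactly 1 UMI, 3 held 2 and 9 held 3 or more. The 12 cells with 2 or more UMIs held 53 of the 96 UMIs, and 1 wild-type cell of plate 2, in well 2D11, held 16. The membership threshold thus runs between 43 cells at exactly 1 UMI and 127 cells at 0. At the depth threshold, a mutant-labelled cell with 1000 UMIs and 1 atoh1a UMI and another with 1086 UMIs and none were kept. A wild-type cell with 712 UMIs and 1 atoh1a UMI and another with 866 UMIs and none were left out. The sort held no class of cells that should lack atoh1a, so the level of stray UMIs could not be measured.

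On plate 2, 29 of 92 cells held atoh1a, 31.5% (22.2% to 42%), and on plate 4, 26 of 90 cells did, 28.9% (19.8% to 39.4%). The level differed more between plates, at 69.3 CPM (51.6 to 91.1) on plate 2 and 130 CPM (94.7 to 174) on plate 4. By genotype, 29 of 90 wild-type cells held atoh1a, 32.2% (22.8% to 42.9%), and 26 of 92 mutant-labelled cells, 28.3% (19.4% to 38.6%). Levels were 106 CPM (80.3 to 137) in wild type and 71.5 CPM (50.9 to 97.8) in mutant-labelled cells, and the intervals overlap. Of the 57 atoh1a UMIs in wild-type cells, 16 lay in the cell of well 2D11.

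**Figure D1:**
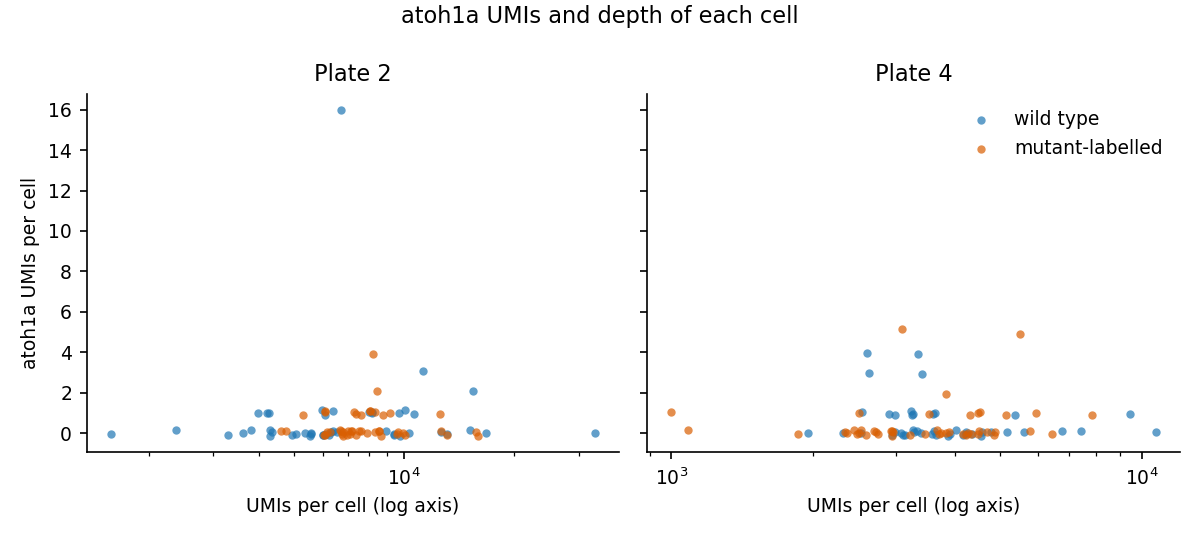
Each point is 1 cell, with its UMIs on a log axis and its atoh1a UMIs on the vertical axis (jittered slightly), by plate and genotype. Most cells sit at 0 or 1 on both plates, and the cell with 16 atoh1a UMIs is a wild-type cell of plate 2.

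Cells with atoh1a were deeper than those without it on plate 2 and of similar depth on plate 4. Cells with it had 1000, 5945 and 15428 UMIs (lowest, median, highest), and cells without it 1086, 4764 and 33325. Within plate 2 the medians were 8043 and 6811 UMIs, and within plate 4 they were 3464 and 3636. Cut into 3 classes of depth, plate 2 had atoh1a in 8 of 31, 11 of 30 and 10 of 31 cells from shallow to deep, and plate 4 in 8 of 30, 9 of 30 and 9 of 30. The median ratio of gene UMIs to spike-in UMIs was 28.6 with atoh1a and 29.8 without it. With each cell thinned to 2000 UMIs, which leaves out 1 cell with atoh1a and 4 without, the median number of genes was 699.5 and 689. At that thinned depth 24 of 177 cells kept an atoh1a UMI, 13.6% (8.88% to 19.5%), with 6 of 91 on plate 2 and 18 of 86 on plate 4.

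The share of a cell's UMIs taken by pvalb8, the parvalbumin gene that dominates mature neuromast hair cells, hardly separated the sides. Cells with atoh1a had pvalb8 shares of 11.3%, 23.9% and 31.7% (lowest, median, highest), and cells without it 9.70%, 23.1% and 34.2%. The ranges overlap almost whole. Shares under 20% occurred in 13 of 55 cells with atoh1a and in 27 of 127 without it. Among cells with exactly 1 UMI, 7 of 43 were under 20%, and the median was 23.9%.

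The 12 cells with 2 or more atoh1a UMIs are given by genotype, a split chosen after the data were seen. The 7 wild-type cells had pvalb8 shares of 11.3%, 11.7%, 13.5%, 13.6%, 17.7%, 19% and 23.4%, against a median of 22.4% in the 61 wild-type cells without atoh1a. The 5 mutant-labelled cells had 23.6%, 24.2%, 27.6%, 27.8% and 28.4%, against a median of 24.5% in 66. The highest wild-type share, 23.4%, and the lowest mutant-labelled one, 23.6%, lie close together. Of the 7 cells 1, and of the 5 cells 3, lie above the median of their genotype's cells without atoh1a. The animals these cells came from are not known, and the difference between genotypes was not tested. Low pvalb8 was also found without atoh1a: of the 26 wild-type cells under 20%, 17 had no atoh1a UMI, 3 had 1 and 6 had 2 or more, while of the 64 others 1 had 2 or more. Among the 14 mutant-labelled cells under 20%, none had 2 or more, and 5 of the other 78 did. Over both genotypes, atoh1a stood at 132 CPM (94.1 to 181) in the 40 cells under 20% and at 72.3 CPM (54.8 to 93.7) in the other 142. Of the 39 atoh1a UMIs under 20%, 16 lay in the cell of well 2D11, and without it the level was 79.9 CPM (50.6 to 120). The wild-type levels were 175 CPM (122 to 243), or 98.3 CPM (59.2 to 153) without that cell, and 65.2 CPM (40.9 to 98.7), and the mutant-labelled ones 42.3 CPM (11.5 to 108) and 77.6 CPM (54.1 to 108).

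Ribosomal protein transcripts took a larger share in some wild-type cells with more atoh1a. Their share of UMIs had a median of 3.33% in cells with atoh1a and 3.22% without it. In the 7 wild-type cells with 2 or more UMIs it ran from 3.04% to 10.5%, with a median of 6.91%, against 3.49% in wild-type cells without atoh1a, and 4 of the 7 lay above that value. In the 5 mutant-labelled cells it ran from 3.14% to 3.53%, with all 5 above the 3.13% of mutant-labelled cells without atoh1a. The difference between genotypes was not tested. Over 5% stood 4 of the 7 wild-type cells, none of the 5 mutant-labelled cells, and 17 of 127 cells without atoh1a, 14 of which were wild type. High ribosomal shares thus also occurred without atoh1a.

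**Figure D2:**
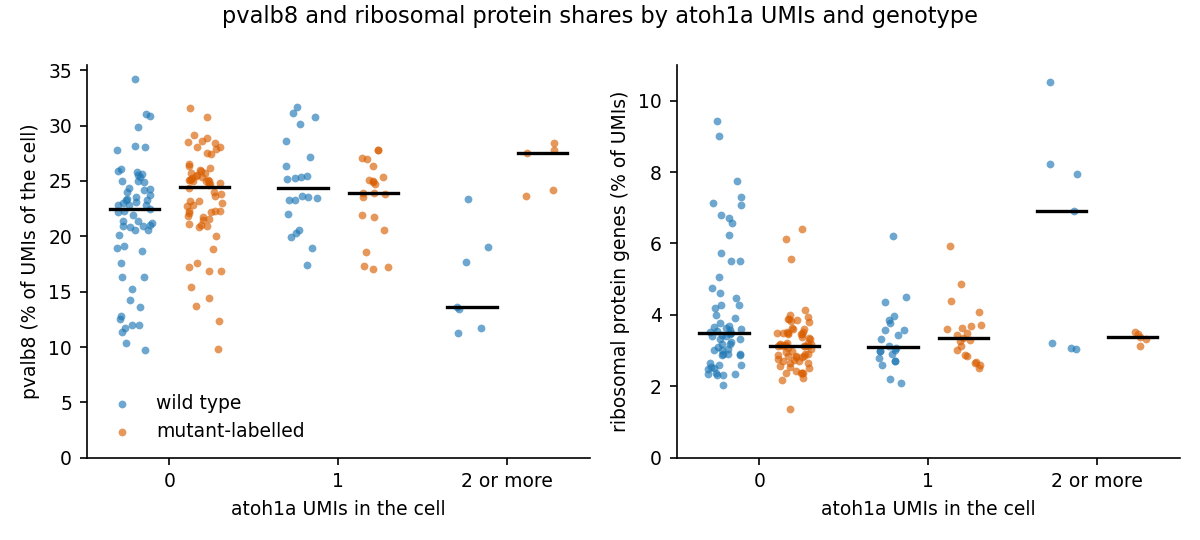
pvalb8 (left) and ribosomal protein genes (right) as a percentage of the UMIs of each cell, by atoh1a UMIs and genotype; points are cells and bars are medians. The 7 wild-type cells with 2 or more UMIs have a median pvalb8 share of 13.6% and the 5 mutant-labelled ones 27.6%, a difference that was not tested. Cells with 0 and 1 UMI overlap.

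The cell in well 2D11 had the most atoh1a, 16 of 6698 UMIs. It had 13.6% pvalb8, 7.94% ribosomal protein transcripts and 11.4% spike-in UMIs, and 40 UMIs of the young hair cell list described below. It held 4 of the 8 UMIs of sox4a, a SoxC transcription factor gene of differentiating cells, and 8 of the 11 UMIs of MYCN, a growth-promoting transcription factor gene; this pair was picked out once its values were known. The wild-type cell in well 4B9, with 4 atoh1a UMIs among 2600, had 18 UMIs of the list, the highest rate of the 12 cells at 6.92 per 1000 UMIs. The 2D11 cell had 5.97 per 1000 and the wild-type cell in well 4C10 had 5.32. The mutant-labelled cells in wells 4B1 and 4E2, with 5 atoh1a UMIs each, had 2 UMIs of the list each, and all 5 mutant-labelled cells lay between 0.364 and 0.971 per 1000. Cells without atoh1a ranged from 0 to 5.22 per 1000, with a median of 0.935.

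Across all genes, few separated the sides. UMIs were summed over the cells of each side, 334151 with atoh1a and 748725 without, and the summed levels (CPM) were compared. Of 3285 genes with at least 30 UMIs, 188 (5.72%) were at least 2-fold higher in cells with atoh1a and 253 (7.7%) at least 2-fold lower. Among the 6287 genes with at least 10 UMIs, 51.2% were higher to any extent, the counting interval lay above 1 for 10.5% and below 1 for 8.4%, and the median log2 ratio was 0.02. Ratios on the separate plates had a correlation near 0. Over the 1196 genes with 30 UMIs on each plate, Pearson's r was 0.015 and Spearman's rho -0.012, given as a description across genes. Of the 48 genes (4.01%) at least 2-fold higher on plate 2, 34 (70.8%) were also higher on plate 4, where 50.7% of all 1196 were. Of the 47 (3.93%) at least 2-fold lower on plate 2, 26 (55.3%) were lower on plate 4, where 49.3% of all were.

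**Figure D3:**
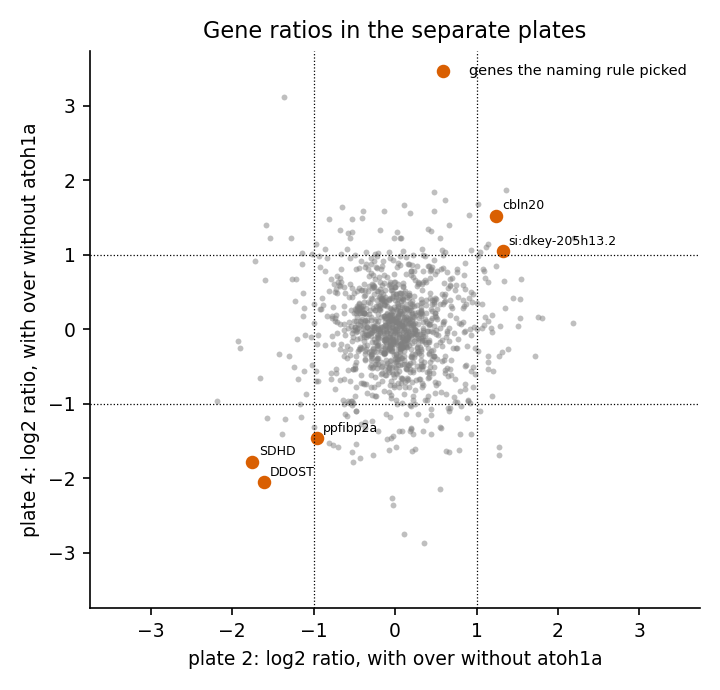
Log2 ratio of summed levels, cells with over cells without atoh1a, on plate 2 (horizontal) and plate 4 (vertical) for 1196 genes with 30 UMIs on each plate; dotted lines mark 2-fold. The cloud has no slope, with a Pearson's r of 0.015, and 5 of the genes picked by the naming rule fall in it.

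A rule asked for a 2-fold ratio, a counting interval that leaves out 1 and a 1.5-fold ratio the same way on each plate. It also asked for a ratio of at least 1.5 without the highest cell and after thinning. The 1.5-fold ratios were taken after adding 1 UMI to each side. Cells with atoh1a had fewer UMIs in all, so this lifts genes with few UMIs toward the higher side. Of the 3285 genes with at least 30 UMIs, 73 met the rule on the higher side and 100 on the lower. Of all 3285, with the same UMI added, 193 (5.88%) were 1.5-fold higher on each plate and 160 (4.87%) 1.5-fold lower. The 12 leading genes of each side are given here. As the rule used their ratios and intervals, these values are a description. The highest ratio was that of LFNG, a glycosyltransferase that modifies Notch receptors, at 6.97 (3.20 to 16.8), from 28 UMIs in 9 of 55 cells against 9 UMIs in 8 of 127. Of those 28, 17 came from 1 cell, in well 4E5, without which the ratio was 2.79 (1.05 to 7.61). PPM1B, a protein phosphatase gene, stood at 4.48 (2.39 to 8.75), from 32 against 16 UMIs. Of these 48, 46 lay on plate 2, and plate 4 had 2 against 0. PPM1B had no UMI in the cells with 2 or more atoh1a UMIs. Without its highest cell, in well 2C12, the ratio was 2.83 (1.40 to 5.85). hspb11 stood at 4.71 (2.12 to 11.2), with 10 of its 21 UMIs in 1 cell, without which the ratio was 2.58 (0.996 to 6.79). After thinning hspb11 had 3 against 1 UMIs. PDCD10 (ENSDARG00000035054), whose product organizes cell junction and trafficking kinases, stood at 4.06 (2.13 to 8.01) and had a UMI in 12 of 55 against 15 of 127 cells. TOX3, a gene of an HMG-box chromatin protein, stood at 3.82 (2.03 to 7.41).

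For TOX3 the ratio was larger in cells with more atoh1a, at 11.2 in the 12 cells with 2 or more UMIs and 1.70 in those with exactly 1, each against none. It had 7 UMIs in well 2B3 and 6 in well 4G11, both with several atoh1a UMIs. PDCD10 (ENSDARG00000035054) was higher in both classes, at 6.92 and 3.24. chmp4c, an ESCRT-III membrane scission gene, stood at 3.52 (1.98 to 6.40), with a UMI in 18 of 55 against 15 of 127 cells, at 4.31 in cells with 2 or more and 3.29 in those with exactly 1. The endoplasmic reticulum protein gene IER3IP1 stood at 3.92 (2.05 to 7.76) but had 1 UMI in the cells with 2 or more. DDIT3, which encodes a transcription factor of the unfolded protein response, had the same counts as IER3IP1, 28 against 16, and 14 of the 28 came from the cell in well 2A9, without which the ratio was 2.0 (0.903 to 4.37). HMG20B, a gene of a CoREST complex subunit, stood at 3.70 (2.06 to 6.80) from 8 of 55 and 16 of 127 cells. Of its 33 UMIs with atoh1a, 13 lay in well 2F4 and 10 in well 4G11, and without the first the ratio was 2.30 (1.17 to 4.5). got1l1, an aspartate aminotransferase-like gene, stood at 3.21 (2.15 to 4.83), from 63 against 44 UMIs. cbln20, a cerebellin-family secreted protein gene, and si:dkey-205h13.2 stood at 2.64 (2.16 to 3.23) and 2.29 (2.08 to 2.53) and are taken up with the support cell genes.

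On the lower side, the succinate dehydrogenase subunit gene SDHD had 13 UMIs in 10 of 55 cells with atoh1a and 112 in 49 of 127 without, a ratio of 0.260 (0.134 to 0.463), at 0.271 on plate 2 and 0.240 on plate 4. DDOST, a subunit of the oligosaccharyltransferase that glycosylates proteins, had 8 against 74 UMIs, a ratio of 0.242 (0.101 to 0.503). CBX8 (ENSDARG00000087327), a Polycomb chromatin reader gene, had 6 against 71, a ratio of 0.189 (0.0672 to 0.433). The mitochondrial histidine tRNA ligase gene HARS2 had 12 against 85, a ratio of 0.316. MAP2K6 and MAPKAPK2, kinase genes of the p38 pathway, had 2 against 39 and 4 against 46 UMIs. ACSL3, a fatty acid activating enzyme gene, had 3 against 43, and timmdc1, a complex I assembly gene, 4 against 44. tspy had 4 against 46, si:dkey-17m8.1 2 against 33 and zgc:174906 1 against 33. ppfibp2a, a liprin gene, had 84 against 465 UMIs, a ratio of 0.405 (0.317 to 0.512), but 170 of the 465 (36.6%) lay in 1 cell, without which the ratio was 0.633 (0.491 to 0.809). For the other 11 genes the cell with most UMIs held between 8 of 112 UMIs (SDHD) and 10 of 33 (zgc:174906) of those without atoh1a.

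Genes of young hair cells and their progenitors were described as a list of 22 genes in the table, 15 of them measured, that is, with at least 10 UMIs over both sides. Of these, 9 were higher and 6 lower in cells with atoh1a, and the list median on the log2 scale was 0.16 (interval -0.16 to 0.99), against 0.02 for all genes. The counting interval lay above 1 for 5 and below 1 for 1, where it did for 10.5% and 8.4% of all genes. Summed, the list had 464 UMIs with atoh1a and 828 without, a ratio of 1.26 (1.12 to 1.41). The ratio of sums was 1.19 (1.03 to 1.38) on plate 2 and 1.39 (1.14 to 1.70) on plate 4. It was 1.41 (1.21 to 1.65) in wild type and 1.08 (0.903 to 1.28) in mutant-labelled cells. In the 12 cells with 2 or more atoh1a UMIs it was 1.71 (1.42 to 2.05). The 7 wild-type cells among them had 2.34 (1.90 to 2.87), and the 5 mutant-labelled cells 0.640 (0.387 to 1.0), from 20 UMIs. Without the 2D11 cell, which had 40 of the 141 UMIs, the 11 others stood at 1.35 (1.09 to 1.66). The list median in the 12 cells was 1.03, with 12 of 14 members higher, where 56% of all genes were higher and their median was 0.16. In cells with exactly 1 UMI it was 0.04, with 7 of 14 higher. Log2 ratios were taken after adding 1 UMI to each side. With 74435 UMIs in the 12 cells against 748725, this lifts the values of genes with few UMIs. IER3IP1, for example, had a ratio of 0.629 in the 12 cells but a log2 value of 0.24. The ratios of sums have no UMI added. Other lists were also higher in the 12 cells: the support cell list median was 1.06 with 16 of 20 higher, that of stress and immediate early genes 0.66 with 24 of 28, and that of ribosomal protein genes 0.34 with 62 of 77. Over all 55 cells, the young list median was 0.06 without cells under 20% pvalb8 and 0.33 without the 6 cells high in support cell transcripts. Without those 6 cells the young list's ratio of sums was lower, at 1.14 (1.01 to 1.29), and for cells with 2 or more atoh1a UMIs it was 1.69 (1.38 to 2.05). The young hair cell list median was 0.053 without the cell with 16 atoh1a UMIs and -0.011 at a minimum of 3000 UMIs per cell, where its sign turned. With all cells thinned to equal depth it was 0.83 (0.12 to 1.19), with 9 of 10 measured members higher, where 53.9% of all genes were. On plate 2 alone it was 0.62 (-0.54 to 1.48) and on plate 4 alone 0.47 (-1.42 to 2.22). By genotype it was 0.35 in wild type and -0.15 in mutant-labelled cells.

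her15.1, a Hes-related repressor gene that Notch turns on, was the member with the highest level in cells with atoh1a relative to those without among members with 20 UMIs. Its 19 UMIs in 11 of 55 cells and 9 in 8 of 127 gave a ratio of 4.73 (2.04 to 11.9), at 4.4 on plate 2 and 5.26 on plate 4. Its level went from 12 CPM (5.50 to 22.8) with 0 atoh1a UMIs through 42.4 CPM (21.1 to 75.8) with 1 to 107 CPM (46.4 to 212) with 2 or more. It was present in both genotypes, at 58.4 CPM with atoh1a and 13.6 CPM without in wild type, and at 55.2 and 10.5 CPM in mutant-labelled cells. Some of the 19 UMIs lay in cells high in support cell transcripts. The mutant-labelled cells in wells 4E5 and 4A5 held 5 and 1, and the wild-type cell in well 2F10 held 4. The levels of both genotypes with atoh1a thus rest in part on such cells. Without the 6 cells high in support cell transcripts, described further on, it had 9 against 9 UMIs, a ratio of 2.51 (0.881 to 7.13). her15.1 has a near-identical neighbour copy, so its counts are uncertain.

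marcksl1b, a gene of a membrane-bound actin regulator, had 20 UMIs on either side, a ratio of 2.24 (1.14 to 4.39). Its 14 UMIs in the 12 cells with 2 or more atoh1a UMIs were all in wild-type cells, 5 of the 7, with 6 of them in well 2D11, without which its ratio was 1.6 (0.748 to 3.33); cells with exactly 1 had 23.1 CPM (8.48 to 50.3), close to the 26.7 CPM (16.3 to 41.3) of cells with none. BTG2, an antiproliferative gene, stood at 1.71 (1.28 to 2.28), with 152 CPM at 0 UMIs, 243 CPM at 1 and 322 CPM (207 to 480) at 2 or more. The cell in well 2D2 held 15 of its UMIs, and the ratio was 1.25 (0.892 to 1.74) without the 6 cells high in support cell transcripts. hmgn6, a nucleosome-binding protein gene, stood at 1.09 (0.869 to 1.36), and the cell cycle inhibitor gene CDKN1B at 0.828 (0.588 to 1.15). LHX4, a LIM homeobox gene that stands in both the young and the hair cell factor lists, was lower, with 5 UMIs in 5 of 55 cells against 38 in 20 of 127, a ratio of 0.295 (0.0906 to 0.750), and none in the 12 cells. Members outside the naming rule were picked after their values were seen: ID2, an inhibitor of helix-loop-helix factors, stood at 1.98 (1.3 to 3.01), and sox4a and sox21a each had 7 UMIs against 1. HES6, which promotes neuronal and hair cell fates, had 6 against 13 UMIs, a ratio of 1.03 (0.322 to 2.92).

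Notch ligand genes as a list were not higher with atoh1a. dld (listed as DLD), the Delta gene of hair cell progenitors and young hair cells, had 69 UMIs in 29 of 55 cells and 181 in 71 of 127, a ratio of 0.854 (0.638 to 1.13), at 0.754 on plate 2 and 1.14 on plate 4. jag2b had 25 against 102 UMIs, a ratio of 0.549 (0.340 to 0.857), below 1 on both plates, but from 1 against 16 UMIs on plate 4. Its level was 136 CPM (111 to 165) at 0 atoh1a UMIs and 84.7 CPM (53.1 to 128) at 1. At 2 or more it was 40.3 CPM (8.31 to 118), from 3 UMIs. dll4 had 19 against 32 UMIs, a ratio of 1.33 (0.712 to 2.42), above 1 on plate 2 and below 1 on plate 4, there from 2 against 15 UMIs. Of the 4 measured ligand genes 1 was higher and 3 lower, for a median log2 ratio of -0.19.

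Of 9 measured genes of Notch receptors, modifiers and targets, 6 were higher and 3 lower, the list median on the log2 scale being 0.62 (-1.3 to 2.16). Beside LFNG and her15.1, the Hes-related genes her4.1, her4.2 and her4.5 stood at 2.80 (1.22 to 6.55), 1.57 (0.932 to 2.61) and 1.41 (0.874 to 2.23). her4.5 had 14 of its 32 UMIs in the cell of well 4E5 and 8 in that of well 2D2, and its ratio was 0.344 (0.132 to 0.761) without the 6 cells high in support cell transcripts. her4.1 stood at 1.04 (0.288 to 3.18) and her4.2 at 0.659 (0.293 to 1.35) without them. Without them the median of the list was -1.09. LFNG also stands in the support cell list, by which the 6 cells were chosen. The her4 genes are near-identical copies in a cluster, and their counts are uncertain. NRARP (ENSDARG00000091419), picked out once its values were known, a Notch feedback inhibitor gene, had no UMI with atoh1a and 13 without, in 4 cells.

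Support cell genes were higher in the sum, through a handful of cells. Support cells surround hair cells in the neuromast and give rise to their progenitors. Of 20 measured genes 14 were higher and 6 lower, and the counting interval lay above 1 for 8 and below 1 for none, against 10.5% and 8.4% of all genes. The median log2 ratio was 0.37 (-0.01 to 1.11), and the summed list stood at 1.54 (1.45 to 1.62), from 2073 against 3025 UMIs. The median cell, in contrast, had 3.78 support UMIs per 1000 with atoh1a and 3.97 without it. Above 15 per 1000 stood 6 cells, 4 of 55 with atoh1a (7.27%, 2.02% to 17.6%) and 2 of 127 without (1.57%, 0.191% to 5.57%). These cells had 34.4 (well 4A5), 29.4 (2F10), 29.3 (4F10), 25 (4E5), 16.9 (4F7) and 15.8 (2D2) per 1000 and pvalb8 shares between 9.70% and 17.3%. Without the 6 cells the summed list stood at 0.976 (0.911 to 1.05). The 6 cells were chosen by this same list, and more of them had atoh1a, so a fall of its ratio was built in. In the 12 cells with 2 or more atoh1a UMIs the summed list stood at 2.03 (1.86 to 2.21). Without the 6 cells it stood at 1.14 (1.0 to 1.29), from 11 cells against 125. That setting leaves out the cell in well 2F10 and also the 2 cells without atoh1a.

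Named members were given again without these cells. They belong to the list that chose the cells, apart from cbln20, so falls of their ratios were partly built in too. si:dkey-205h13.2 had 854 against 834 UMIs, with 204, 200 and 138 of the 854 in wells 2F10, 4A5 and 2D2, and its ratio without the 6 cells was 0.858 (0.743 to 0.988). cbln20, not in the list but chosen by the naming rule, had 95 of its 219 UMIs in well 4E5 and stood at 0.710 (0.510 to 0.974) without them. FNDC7, a fibronectin domain gene of neuromast support cells, went from 2.94 (1.76 to 4.94) to 1.38 (0.701 to 2.63), and LFNG to 1.39 (0.367 to 4.63), from 5 against 9 UMIs. The junction genes cldnb and epcam went from 1.62 to 0.763 (0.507 to 1.12) and from 1.31 to 1.17 (1.0 to 1.36), where the interval of epcam still lay above 1. The glutamate transporter gene SLC1A3 went from 2.16 to 0.683 (0.359 to 1.23). cldnb and SLC1A3 were picked out once their values were known. FGF10 (ENSDARG00000100475), the member with the third most UMIs, went from 0.926 (0.766 to 1.11) to 0.966 (0.795 to 1.17). fndc7b, with 12 against 11 UMIs and 0 with atoh1a on plate 4, had 4 against 11 without the 6 cells. Whether these 6 wells held more than 1 cell was not tested.

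**Figure D4:**
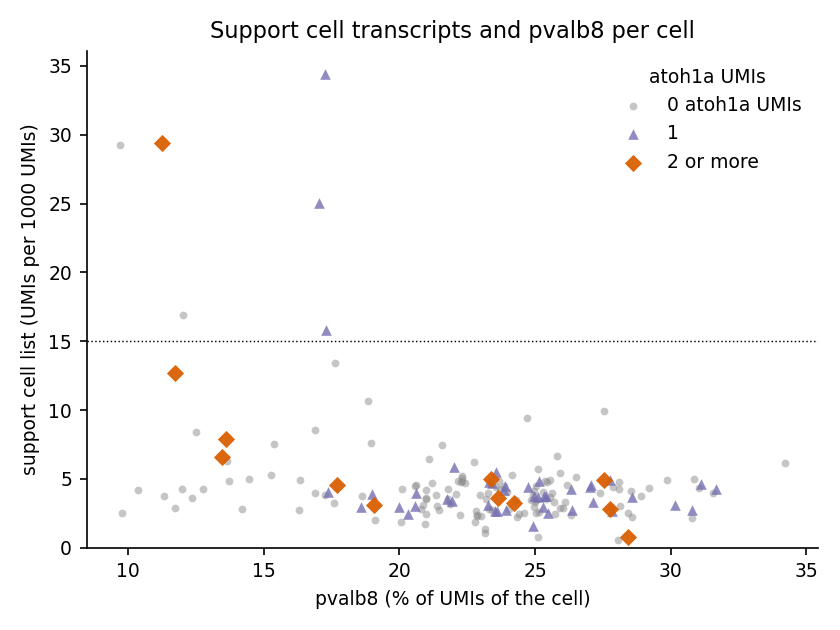
Support cell list UMIs per 1000 UMIs of a cell against its pvalb8 share (% of UMIs), with symbols by atoh1a UMIs; the dotted line is at 15 per 1000. Of the 6 cells above the line, 4 have atoh1a, and all 6 have a pvalb8 share below 20%.

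Transcription factor genes of hair cells stood close to equal. Of 14 measured, 9 were higher and 5 lower, the list median on the log2 scale was 0.04 (-0.35 to 0.17), and the summed list was at 1.0 (0.921 to 1.09). gfi1aa, a zinc finger gene that maintains hair cell identity, had 146 against 312 UMIs, a ratio of 1.05 (0.855 to 1.28). POU4F1 stood at 1.02 (0.808 to 1.27), EYA1, a transcriptional coactivator gene of sensory placodes, at 1.12 (0.890 to 1.40), and HMX2, a homeobox gene, at 1.39 (0.987 to 1.93). RFX2, a regulator of ciliary genes, stood at 0.763 (0.494 to 1.15). LHX4 was the member furthest from 1.

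Calcium-binding protein genes were nearly equal, and those other than pvalb8 leaned lower. pvalb8 itself stood at 1.04 (1.03 to 1.05), with 75389 against 162733 UMIs. s100t stood at 0.927 (0.909 to 0.946) and s100s at 0.898 (0.836 to 0.963); on plate 4 alone s100t was at 1.02. calm1b, a calmodulin gene, stood at 0.812 (0.724 to 0.910), at 0.849 and 0.750 on the 2 plates and 0.516 in cells with 2 or more atoh1a UMIs. The calcium pump gene atp2b2 had 30 against 113 UMIs, a ratio of 0.595 (0.384 to 0.896), and CAPSL, a calcyphosine-like gene, 18 against 28, a ratio of 1.44 (0.750 to 2.70). Of 15 measured, 4 were higher and 11 lower, the list median on the log2 scale was -0.11 (-0.28 to 0.05), and 7 of the 14 with 10 UMIs on each plate were lower on both, where 23.4% of all genes were.

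Hair bundle and mechanotransduction genes leaned slightly lower. Of 35 measured, 12 were higher and 23 lower, and the counting interval lay above 1 for 1 and below 1 for 9, where 10.5% and 8.4% of all genes did. The median log2 ratio was -0.17 (-0.68 to 0.10). It was -0.28 (-0.69 to 0.12) in cells with exactly 1 UMI. In cells with 2 or more it was 0.11, with 21 of 35 higher, where 56% of all genes were higher and their median was 0.16. The 1 UMI added to each side lifts the median of this smaller class, with 74435 UMIs against 748725, so the 2 medians cannot be set side by side. The summed list, with no UMI added, stood at 0.911 (0.865 to 0.958), and at 0.868 (0.787 to 0.956) in the cells with 2 or more. The difference between these classes was not tested. MYO7A, the gene of an unconventional myosin of the bundle, had 9 against 62 UMIs, a ratio of 0.325 (0.142 to 0.658), at 0.350 on plate 2 and 0.260 on plate 4. ESPN, which encodes the actin bundler espin, had 1 against 26, and USH1C, the gene of the scaffold harmonin, 2 against 24. MYO6 (ENSDARG00000042141), a myosin gene of the bundle base, had 124 against 372, a ratio of 0.747 (0.605 to 0.918), and ATP2B1 857 against 2168, a ratio of 0.886 (0.817 to 0.959). GIPC3 stood at 1.1 (0.957 to 1.25). FSCN2, GRXCR1, FSCN1 and TMC2 (ENSDARG00000033104) were also below 1, at 0.564, 0.424, 0.407 and 0.574, and lhfpl5b, a transduction complex gene, above it at 1.48; these were named after their values were seen.

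Ribbon synapse genes showed no common direction. OTOF (ENSDARG00000020581), the gene of the calcium sensor otoferlin, had 530 against 1385 UMIs, a ratio of 0.857 (0.774 to 0.948), the same on each plate at 0.86. cabp2b, a calcium channel regulator gene, stood at 1.01 (0.907 to 1.12), and BDNF, a neurotrophin gene, at 1.1 (0.939 to 1.28). KCNMA1, a calcium-gated potassium channel gene, had 7 against 45, a ratio of 0.349 (0.133 to 0.779), at 0.268 on plate 2 and 1.17 on plate 4. cacna1da, the hair cell calcium channel gene, had 2 against 18. Of 20 measured, 9 were higher and 11 lower, and their median on the log2 scale was -0.05 (-0.40 to 0.32).

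Cilium genes leaned slightly lower, with 18 of 52 higher and 34 lower; the list median was -0.14 on the log2 scale (-0.31 to -0.06). Of these, 13 of the 36 with 10 UMIs on each plate were lower on both and 5 higher on both, where 23.4% and 26.8% of all genes were. The members with most UMIs were tubb4b at 0.959 (0.821 to 1.12), MEIG1 at 1.09 (0.929 to 1.27) and dynll1 at 0.896 (0.756 to 1.06). SPAG6, an axonemal central apparatus gene, had 29 against 148 UMIs, a ratio of 0.439 (0.284 to 0.657), at 0.425 and 0.467 on the 2 plates, and MNS1 13 against 69. ARL3, a ciliary trafficking GTPase gene, stood at 3.10 (1.44 to 6.89), at 4.15 on plate 2 and 0.584 on plate 4, and at 2.12 (0.883 to 5.03) without its highest cell. In mutant-labelled cells alone the list median was 0.05.

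EMX2, which the study turns on, had a UMI in 22 of 55 cells with atoh1a and in 53 of 127 without, a ratio of levels of 1.26 (0.886 to 1.78). In wild type it stood at 70 CPM (36.2 to 122) with atoh1a and 90.1 CPM (62 to 127) without, and in mutant-labelled cells at 258 CPM (186 to 348) and 165 CPM (127 to 211). The mutant-labelled cell in well 4E2, with 5 atoh1a UMIs, held 10 of the 42 EMX2 UMIs of mutant-labelled cells with atoh1a. Among planar polarity genes, gnai1, an inhibitory G protein gene, stood at 1.43 (1.04 to 1.96), or 1.27 (0.904 to 1.76) without its highest cell, CCDC88C at 0.204 (0.0232 to 0.829) from 2 against 22 UMIs, and PRICKLE1 (ENSDARG00000045694), a core polarity gene, at 1.70 (0.887 to 3.22). Of 11 measured, 6 were higher and 5 lower, with 0.06 as the median on the log2 scale.

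Stress and immediate early genes leaned higher. Of 29 measured, 24 were higher and 5 lower, the interval lay above 1 for 10 and below 1 for none, where 51.2% of all genes were higher and 10.5% and 8.4% had such intervals, and the median log2 ratio was 0.16 (0.12 to 0.75). JUN, a gene induced by cell dissociation, had 645 against 1197 UMIs, a ratio of 1.21 (1.1 to 1.33), and HSPA8 (ENSDARG00000068992) and hsp70.1, heat shock protein genes, stood at 1.08 (1.0 to 1.17) and 1.07 (0.940 to 1.22). ier2a stood at 2.52 (1.77 to 3.59), above 1 on both plates, with 19 of its 72 UMIs in well 4A5 and 11 in well 2A9, and klf2b had 12 against 10, or 4 against 10 without the 6 cells high in support cell transcripts. By genotype the list median was 0.05 in wild type and 0.45 in mutant-labelled cells. Over both it was -0.01 without the cells under 20% pvalb8 and 0.01 without the 6 cells high in support cell transcripts.

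The reporter was lower with atoh1a and the housekeeping lists were close to equal. GFP stood at 560 CPM (482 to 646) with atoh1a and 724 CPM (664 to 787) without it; the 12 cells with 2 or more UMIs were at 725 CPM (545 to 947). It stood at 631 and 909 CPM in wild type and 485 and 547 CPM in mutant-labelled cells. Of 77 ribosomal protein genes, 34 were higher and 43 lower, for a list median of -0.02 on the log2 scale. Of 82 nuclear genes of oxidative phosphorylation, 46 were higher and 36 lower, at a median of 0.02, and the 12 mitochondrial genome genes split 6 and 6. Actin and cell shape genes had 9 higher and 13 lower, with actb2 at 1.02 (0.894 to 1.15) and the summed list at 1.0 (0.938 to 1.07). Without the 6 cells high in support cell transcripts, 4 of 21 were higher and the list median was -0.42. The summed list was then at 0.930 (0.867 to 0.997). Few cell cycle UMIs were counted on either side, 23 and 52, with PCNA, a replication gene, at 2 against 13, RRM1 at 4 against 10 and DUT at 8 against 3, 6 of the 8 in 1 cell.

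Markers of other cell types were found on both sides. Epidermal genes split 6 and 6 over 12 measured, with the summed list at 0.890 (0.803 to 0.987) and krt5 at 0.894 (0.790 to 1.01), and muscle genes 10 and 10 over 20, with atp2a1 at 1.08 (0.953 to 1.23). Summed per cell, epidermal genes ran from 0 to 4269 CPM with atoh1a and from 0 to 5275 CPM without, and muscle genes from 0 to 8355 and from 333 to 7795 CPM. The 4 measured ionocyte and mucous genes had a median of 0.24. Their sum stood at 1.22 (1.08 to 1.39), at 1.35 (1.08 to 1.67) in cells with 2 or more atoh1a UMIs and at 1.03 (0.893 to 1.19) without the 6 cells high in support cell transcripts. krt18b among them went from 1.56 (1.27 to 1.93) to 0.856 (0.643 to 1.13) without those cells. The median was -0.43 over the 4 neuron and glia genes, with ISL1 at 1.12 (0.656 to 1.87). Leukocyte markers had 1 UMI on either side, pigment and endothelial markers 4 and 13, and no erythroid marker was in the table. Their part in the results was not tested.

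**Figure D5:**
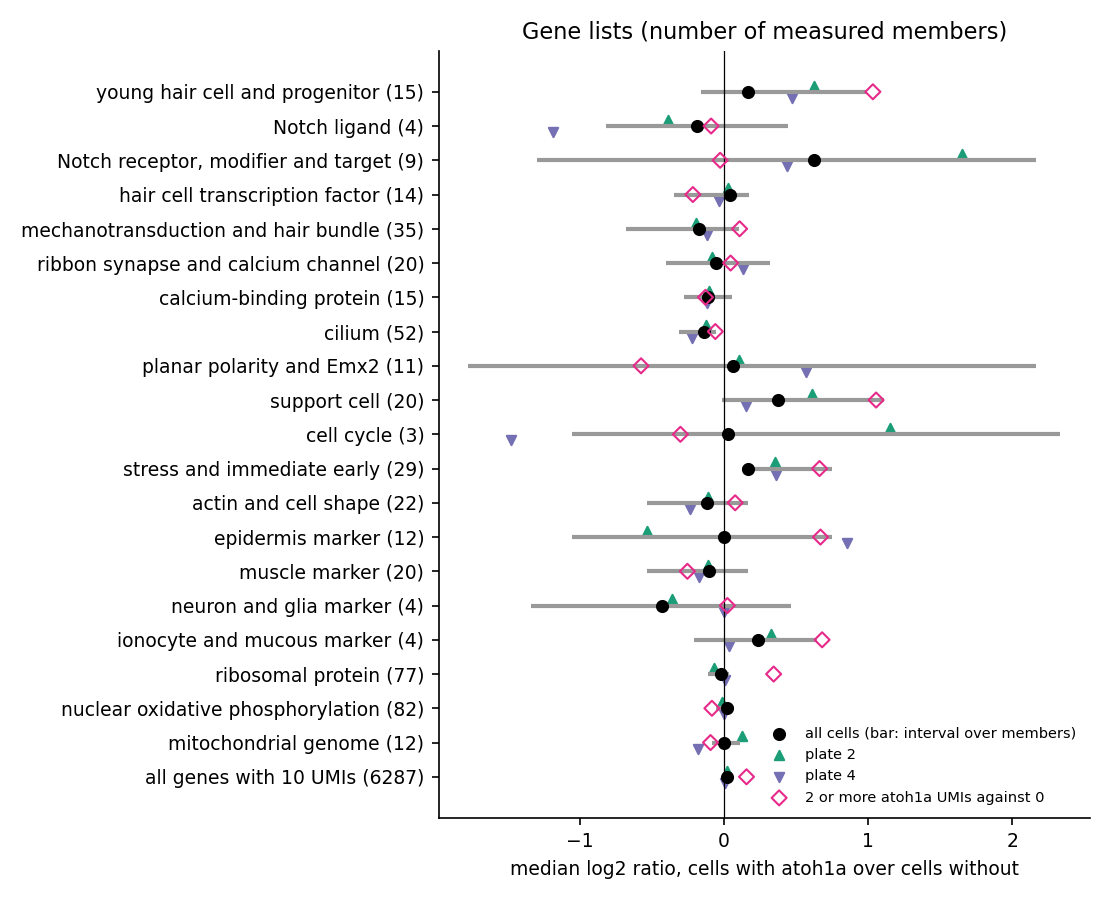
Median log2 ratio of summed levels, cells with over cells without atoh1a, for each list of genes (number measured in brackets), with the interval over members as a bar, the separate plates as triangles and the cells with 2 or more atoh1a UMIs as open diamonds. All genes are at 0.02, and at 0.16 in cells with 2 or more UMIs. The 1 UMI added to each side lifts the open diamonds, most for lists of genes with few UMIs. The young list is at 0.16 and 1.03, the support cell list at 0.37 and 1.06, and the Notch receptor, modifier and target list at 0.62 and -0.03.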

How the data were processed

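UMI counts per gene and cell were deposited by the authors as whole numbers with no normalization, from mcSCRB-seq libraries, per the labels' protocols. STAR 2.6.0a and the build GRCz11 appear in the submitters' processing notes; which tool and annotation did the counting is not given in the sources used here. Every column matched 1 sample by its barcode. Spike-in rows, 5.15% of UMIs, stayed out of all sums. A symbol table named 11707 of 12354 gene identifiers, often in human style; list symbols were matched regardless of case, else without a final a or b.

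The members, gene lists and rules were chosen with earlier results of these data known. Cells of at least 1000 UMIs were split by atoh1a UMIs (1 or more against 0), and UMIs were summed per side and scaled to CPM. Each side is 1 sample, so there is no test. Intervals at 95% are exact Poisson (CPM), exact conditional (ratios) and Clopper-Pearson (shares); those of list medians are binomial over members, or the range below 6 members. List medians use members with at least 10 UMIs in the comparison and a prior of 1 UMI a side. The prior lifts log2 ratios of genes with few UMIs where the side with atoh1a has fewer UMIs in all. Counts of 2-fold genes use 30 UMIs.

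Beside the 12 genes a side that the rule in the text gives, ranked by the interval bound nearest to 1, up to 3 members of each list were named for most UMIs, up to 3 for the most extreme ratio at 20 UMIs or more, and also EMX2, GFP, pvalb8, s100s, s100t, DLD and MYO6. Some genes that this rule names are not reported here. Cells were sorted singly into wells, so no doublet caller was run. Depth was compared after thinning each cell to 2000 UMIs. Alternatives were other minimums, priors and thinning depths, a status from thinned cells, a limit of 2 atoh1a UMIs, depth-matched cells, averaging CPM over cells, TMM factors (edgeR 4.0.16), size factors (DESeq2 1.42.0), single plates and genotypes, and left-out cells. The work used scipy 1.17.1, numpy 2.4.6, pandas 2.3.3 and matplotlib 3.10.9 in Python 3.11.15, and R 4.3.3. The ratio step was tested on simulated data.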

Additional observations from a re-analysis of the deposited data

How the results depend on the processing

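No paired analysis was possible because the labels give the cells no shared replicate, animal or pool, and each side is 1 sample. The number of genes with enough UMIs differed between settings, so bare counts cannot be set side by side. Shares of those genes are in brackets for some settings. The number of genes 2-fold higher in cells with atoh1a, 188 (5.72%), was 25 (2%) with cells thinned before summing. It was 123 against depth-matched cells and 124 without cells under 20% pvalb8. On plate 4 alone it was 63 (4.98%), in wild type 107 (5.7%) and in mutant-labelled cells 112 (6.1%). It was 758 at a minimum of 10 UMIs, 2695 at a minimum of 1, and 322 for cells with 2 or more atoh1a UMIs (300 without the 16-UMI cell). The shares for the 758, the 322 and the 300 were also larger than that for the 188. The number of genes 2-fold lower in cells with atoh1a, 253 (7.7%), was 32 (2.56%) with thinned cells and 115 against depth-matched cells. On plate 4 it was 109 (8.62%) and in wild type 144 (7.67%). It was 1016 (16.2%) and 4064 at the lower minimums, and 668 with the status taken from thinned cells. For 2 or more UMIs it was 547 (20.6%), and 583 (22.2%) without the 16-UMI cell. For mutant-labelled cells with 2 or more it was 418 (29.4%). The share of cells with atoh1a was 13.6% at 2000 UMIs and 5.49% at 1000. With 2 or more UMIs the young list median was 1.03, at 1.23 in wild type and -0.19 in mutant-labelled cells, values that the prior of 1 UMI a side lifts. The pvalb8 share difference, 0.709 points, was -1.93, and by genotype -8.80 and 3.08. The log2 depth ratio, 0.32, was -0.62 with the thinned status, -0.32 for 2 or more without the 16-UMI cell and -0.42 for wild type with 2 or more. On the log2 scale, signs turned for PPM1B (-0.83), hspb11 (-0.18), FNDC7 (-0.25) and GFP (0.050) with the thinned status, and for PPM1B (-0.76), pvalb8 (-0.13) and GFP (0.027) at 2 or more. On plate 4 s100t was at 0.028. In mutant-labelled cells the cilium list was at 0.050, or 0.031 at 2 or more, marcksl1b at -0.77 and s100t at 0.031. With exactly 1 UMI marcksl1b was at -0.057. Without cells under 20% pvalb8 the stress and immediate early list median (-0.0059), cbln20 (-0.34), si:dkey-205h13.2 (-0.10), cldnb (-0.21) and epcam (-0.013) turned. Without the 6 cells high in support cell transcripts cbln20 (-0.47), si:dkey-205h13.2 (-0.22), cldnb (-0.36) and SLC1A3 (-0.48) turned. The cause was not tested. Of the alternative values of named genes that were counted, 867 stayed within their interval, 114 moved past it and 19 turned sign where the interval leaves out 1. This count left out the cells with 2 or more UMIs split by genotype or without the 16-UMI cell. There, for example, cbln20 (-1.59) and si:dkey-205h13.2 (-0.63) turned in mutant-labelled cells. Of 480 alternative list medians 103 turned sign, 3 of them for a list whose interval leaves out 0. The settings that leave out the 16-UMI cell, a gene's highest cell, the cells high in spike-in UMIs or the 6 cells, that take exactly 1 UMI, or that split the cells with 2 or more by genotype were chosen after seeing the data. Other scale factors moved the median of all genes by at most 0.038.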
